A study of Mus musculus with 24 samples.

Results

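The NR4A family consists of 3 nuclear receptor genes, Nr4a1, Nr4a2 and Nr4a3, and their mRNA levels were followed here across 8 groups of mouse 3T3 MEFs that differed in genotype and in IL-1β treatment. The 3 genes were chosen by name, with earlier results of these data known, out of 55471 genes in the count tables. All 3 were among the 17522 genes with enough counts to be tested. The groups were WT cells, Lkb1-/- cells and 2 clones of cells lacking both LKB1 and CRTC2, called A1 and A2, each either left untreated or stimulated with the inflammatory cytokine IL-1β for 6 h, with 3 RNA-seq libraries per group and 24 in all. Clones A1 and A2 were made from Lkb1-/- cells with CRISPR and each was expanded from a single cell, so a difference shared by both clones has 2 clones behind it and a difference seen in 1 clone has a single clone behind it. The WT and Lkb1-/- cells were 1 line each as far as the sources say, so the genotype and the line cannot be told apart in their comparison. In bulk RNA, fewer cells that express a gene and less of its RNA per cell cannot be told apart either.

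NR4A proteins are orphan nuclear receptors, which bind DNA as monomers at the element called NBRE or as dimers, and which work without a known natural ligand, so that the amount of receptor made largely sets their activity. Their genes are immediate-early genes: growth factors, calcium, cAMP and inflammatory signals switch them on quickly and for a short time. NR4A1 (Nur77) is known for its part in cell death and in T cell and macrophage biology, NR4A2 (Nurr1) for the development and upkeep of dopamine neurons, and NR4A3 (Nor1) for work shared with NR4A1 in blood cells and muscle. All 3 genes are textbook targets of CREB, which binds cAMP response elements (CREs) and calls on CRTC coactivators. LKB1 activates the SIK kinases, and SIKs phosphorylate CRTC2 and keep it out of the nucleus, which places the 3 genes downstream of both deleted proteins.

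The promoters are shown because CREB is a factor through which CRTC2 acts. In GRCm38, Nr4a1 (ENSMUSG00000023034.7) lies on the plus strand of chromosome 15 from 101254269 to 101274795, Nr4a2 (ENSMUSG00000026826.13) on the minus strand of chromosome 2 from 57106830 to 57124003, and Nr4a3 (ENSMUSG00000028341.9) on the plus strand of chromosome 4 from 48045153 to 48086447, and no other annotated gene overlaps any of them. The 250 bases before the RefSeq start (RefSeq, GRCm38.p6) are given 5′ to 3′ on the strand of the gene, chr15:101266596-101266845 for Nr4a1, chr2:57124004-57124253 for Nr4a2 and chr4:48045055-48045304 for Nr4a3. The starts used for Nr4a1 and Nr4a3 lie inside the longer GENCODE genes. Capitals mark CRE half-sites, TGACG or CGTCA on the strand shown.
Nr4a1: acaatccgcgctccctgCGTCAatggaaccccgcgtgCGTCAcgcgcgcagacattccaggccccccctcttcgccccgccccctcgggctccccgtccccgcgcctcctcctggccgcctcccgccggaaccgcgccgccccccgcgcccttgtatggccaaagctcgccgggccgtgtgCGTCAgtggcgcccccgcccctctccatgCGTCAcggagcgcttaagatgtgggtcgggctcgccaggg
Nr4a2: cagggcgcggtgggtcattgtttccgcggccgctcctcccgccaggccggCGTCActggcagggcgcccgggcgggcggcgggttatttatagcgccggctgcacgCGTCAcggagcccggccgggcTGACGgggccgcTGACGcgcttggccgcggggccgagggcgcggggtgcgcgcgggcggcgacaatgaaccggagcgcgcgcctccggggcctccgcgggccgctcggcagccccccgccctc
Nr4a3: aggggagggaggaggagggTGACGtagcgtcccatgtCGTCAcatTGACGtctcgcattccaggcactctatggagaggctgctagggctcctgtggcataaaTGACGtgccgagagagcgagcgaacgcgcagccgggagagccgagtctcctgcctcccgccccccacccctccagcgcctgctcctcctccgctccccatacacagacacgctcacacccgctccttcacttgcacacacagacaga
Each of the 3 promoters held 4 CRE half-sites. Within the window from 250 bases before to 50 bases after the start, at least 1 half-site was found in 20.8% of the 32851 mouse promoters in the RefSeq table, and 4 or more in 0.231%. Counted in bases from the start, the half-sites began at -233, -213, -69 and -40 in Nr4a1, at -200, -144, -123 and -111 in Nr4a2, and at -231, -213, -205 and -147 in Nr4a3. None of the 3 windows held the full palindromic CRE, TGACGTCA, which 1.79% of promoters held. The NBRE, AAAGGTCA, to which NR4A receptors themselves bind, had no match in the 3 windows (1.51% of promoters), nor had the CArG box of serum response factor (1.63%). The kappaB motif of NF-κB, the main factor downstream of IL-1β, matched 1 stretch in Nr4a1 (8.46% of promoters had a match) and none in Nr4a2 or Nr4a3. All motifs were searched on both strands. GC content was 72.3% in Nr4a1, 81.7% in Nr4a2 and 64.7% in Nr4a3, against a median of 52.7%. A motif match describes these letters only and is no measure of binding.

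Between 38842901 and 48594394 read pairs per library were counted on genes. Stk11, which encodes LKB1, had 86.0 ± 1.68 CPM (the count of a gene scaled to the library's total over the genes tested times its TMM factor, 0.922 to 1.09, mean ± SD, n = 3) in untreated WT cells and 17.3 ± 1.24 CPM in untreated Lkb1-/- cells, and lay between 16.8 and 22.5 CPM on average in the other groups without LKB1. Crtc2 had 58.4 ± 2.44 CPM in untreated WT cells, 81.1 ± 1.80 in Lkb1-/- cells, 42.9 ± 2.11 in clone A1 and 49.8 ± 0.864 in clone A2, so the RNA of both deleted genes was reduced in the groups labelled as lacking them, Crtc2 against its level in Lkb1-/- cells, but was not absent. RNA counts do not show whether the protein is still made. The paper reports that knockout in the CRISPR clones was checked by western blot, and it includes a CRTC2 immunoblot of WT, Lkb1-/- and double-knockout MEFs. The summed level of 10 fibroblast markers was 5717 to 9936 CPM per library (only Thy1 stayed under 1 CPM in every library), 5 leukocyte markers summed to 2.39 to 6.82 CPM (only Cd68 was above 1 CPM), and 4 markers of neurons, cells in which Nr4a2 is active, summed to at most 0.147 CPM. Replicate 1 of every group stood apart from replicates 2 and 3 (chi-square per degree of freedom over genes 42.9 to 122 against it, and 8.29 to 21.1 between the other two), and the labels do not say why. No 2 libraries of a group agreed within sampling noise. The labels do not say that replicates came from separate cultures, so the p-values measure only the spread between these libraries, which may be technical.

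**Figure D1:**
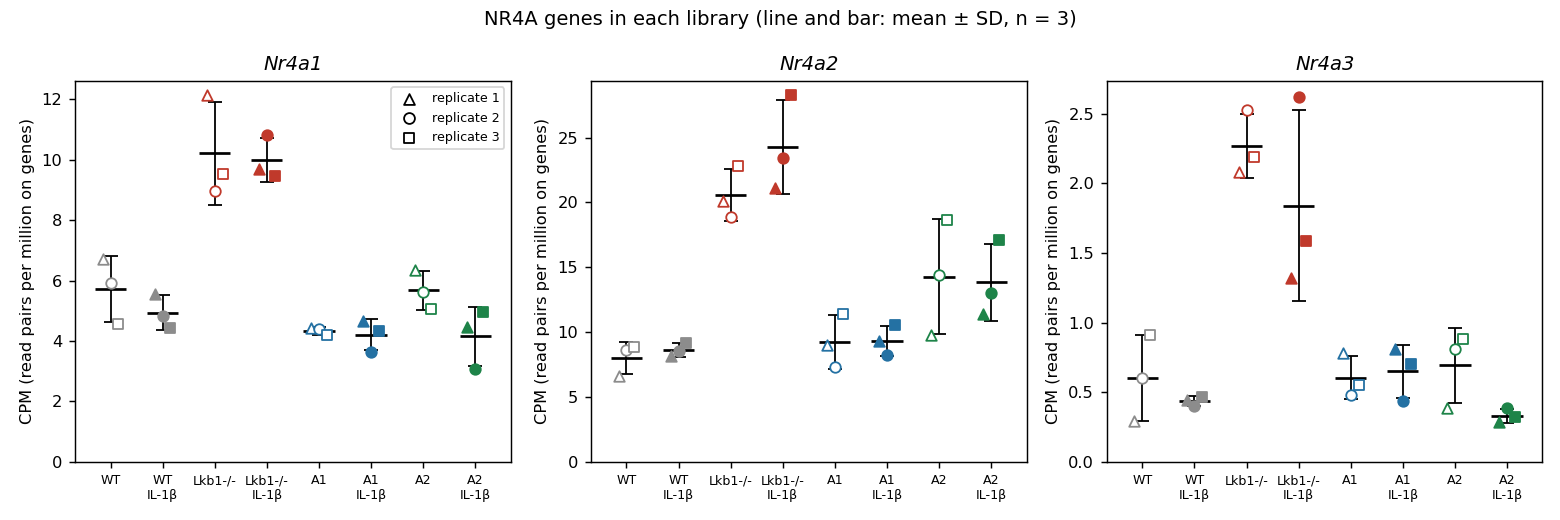
CPM of each NR4A gene in each of the 24 libraries, by group (open symbols untreated, filled symbols IL-1β, symbol shape the replicate number, lines and bars the mean ± SD of 3 libraries). In all 3 panels the 6 Lkb1-/- libraries lie above every WT library and every A1 and A2 library, for Nr4a1 at 8.96 to 12.2 CPM, as they did for 2.47% of all genes tested.

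Nr4a1, the best studied member of the family, was measured at 6.72, 5.92 and 4.56 CPM in the untreated WT libraries and at 5.55, 4.83 and 4.42 CPM in the IL-1β-treated ones. In Lkb1-/- cells it was at 12.2, 8.96 and 9.55 CPM untreated and 9.69, 10.8 and 9.45 CPM with IL-1β. The 6 Lkb1-/- values did not overlap any other group, and lay above the other 18 libraries, as was the case for 2.47% of all genes tested. Clone A1 had 4.41, 4.39 and 4.18 CPM untreated and 4.66, 3.64 and 4.32 CPM with IL-1β, and clone A2 had 6.35, 5.63 and 5.06 CPM untreated and 4.46, 3.06 and 4.95 CPM with IL-1β. By mean, the order was Lkb1-/- untreated (10.2 ± 1.70), Lkb1-/- with IL-1β (9.99 ± 0.733), WT (5.73 ± 1.09), A2 (5.68 ± 0.643), WT with IL-1β (4.94 ± 0.573), A1 (4.33 ± 0.128), A1 with IL-1β (4.21 ± 0.520) and A2 with IL-1β (4.15 ± 0.979). The ranges of neighbours in this order overlapped except at the step from the Lkb1-/- groups to WT and at the step from IL-1β-treated WT cells, lowest at 4.42 CPM, to untreated A1 cells, highest at 4.41 CPM. This last gap comes with the TMM factors: with counts divided by the library total on genes alone, a scaling added after seeing the data, the 2 groups overlapped (4.16 CPM lowest in WT, 4.55 highest in A1) and the means of A2 were above those of WT (untreated, 5.90 and 5.44) and of A1 (IL-1β, 4.33 and 4.25). The Lkb1-/- libraries were above the other 18 by that scaling too, lowest at 8.90 against 6.94 CPM.

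Nr4a2 was the member with the most reads. WT cells had 6.61, 8.61 and 8.82 CPM untreated and 8.15, 8.57 and 9.15 CPM with IL-1β. Lkb1-/- cells had 20.1, 18.9 and 22.8 CPM untreated and 21.1, 23.5 and 28.3 CPM with IL-1β, again above every other library. The clones were lower: A1 had 9.0, 7.27 and 11.4 CPM untreated and 9.34, 8.20 and 10.5 CPM with IL-1β, whereas A2 had 9.79, 14.4 and 18.6 CPM untreated and 11.4, 13.0 and 17.1 CPM with IL-1β. The order of the means was Lkb1-/- with IL-1β (24.3 ± 3.66), Lkb1-/- (20.6 ± 2.0), A2 (14.3 ± 4.42), A2 with IL-1β (13.8 ± 2.96), A1 with IL-1β (9.35 ± 1.16), A1 (9.22 ± 2.07), WT with IL-1β (8.62 ± 0.506) and WT (8.01 ± 1.22). Neighbours overlapped except between the Lkb1-/- groups and untreated A2, and between IL-1β-treated A2 and IL-1β-treated A1. The untreated A2 group had the widest spread, with its replicate 3 close to the lowest Lkb1-/- library, and with counts divided by the library total alone the 2 values were 18.71 and 18.74 CPM.

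Nr4a3 was the least abundant, with 13 to 126 counts per library, and its values carry the largest counting error. WT cells had 0.290, 0.599 and 0.913 CPM untreated and 0.444, 0.397 and 0.465 CPM with IL-1β, and Lkb1-/- cells 2.08, 2.53 and 2.19 CPM untreated and 1.32, 2.62 and 1.58 CPM with IL-1β. Clone A1 had 0.780, 0.480 and 0.551 CPM untreated and 0.809, 0.437 and 0.699 CPM with IL-1β, and clone A2 0.383, 0.810 and 0.881 CPM untreated and 0.287, 0.382 and 0.318 CPM with IL-1β. The lowest Lkb1-/- library, 1.32 CPM, was still above the highest of the other 18 libraries, 0.913 CPM. The means ran from 2.27 ± 0.233 in untreated and 1.84 ± 0.686 in IL-1β-treated Lkb1-/- cells to 0.691 ± 0.269 in A2, 0.649 ± 0.191 in A1 with IL-1β, 0.604 ± 0.157 in A1, 0.601 ± 0.311 in WT, 0.436 ± 0.0351 in WT with IL-1β and 0.329 ± 0.0487 in A2 with IL-1β. Apart from the step below the Lkb1-/- groups, neighbours overlapped except the last pair, where 0.397 CPM was the lowest WT value and 0.382 CPM the highest A2 value. Divided by the library total alone, that pair overlapped (0.366 and 0.392 CPM), while the step below the Lkb1-/- groups stayed (1.42 against 0.885 CPM).

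The comparison of Lkb1-/- with WT cells asks what changes where LKB1 is missing. All 3 NR4A genes rose, in both treatment states, and no Lkb1-/- library overlapped a WT library. In untreated cells Nr4a1 was 1.78-fold higher (log2 fold change 0.83, SE 0.17, edgeR quasi-likelihood test with Benjamini-Hochberg adjustment, adjusted p = 0.000215), Nr4a2 2.57-fold higher (1.36, SE 0.20, edgeR adjusted p = 6.48e-06) and Nr4a3 3.80-fold higher (1.93, SE 0.35, edgeR adjusted p = 7.40e-05). After IL-1β the same comparison gave 2.02-fold for Nr4a1 (log2 1.02, SE 0.17, edgeR adjusted p = 2.35e-05), 2.82-fold for Nr4a2 (1.49, SE 0.20, edgeR adjusted p = 1.87e-06) and 4.22-fold for Nr4a3 (2.08, SE 0.36, edgeR adjusted p = 4.71e-05). The estimates were smallest for Nr4a1 and largest for Nr4a3 in both states, with 95% intervals in untreated cells of 0.48 to 1.18, 0.94 to 1.79 and 1.20 to 2.66 on the log2 scale, and the differences between the genes were not tested. Large parts of the transcriptome differed between these lines: 30.1% of all genes tested were called higher without treatment and 30.2% after IL-1β, and 34.7% and 32.3% were higher with no overlap of the groups, while 25.8% and 27.1% were called lower. The call of 3 of 3 members as higher is to be read against these shares. Among markers of other cell types, the 4 endothelial markers (only Kdr was above 1 CPM) summed to 0.513 CPM in untreated WT and 2.71 CPM in Lkb1-/- cells, and the 5 epithelial markers (only Krt19 above 1 CPM) to 2.47 and 0.899 CPM, on average, and their part in the result was not tested. None of these markers was at 0 in all libraries.

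Clones A1 and A2 were compared with Lkb1-/- cells, from which they were made, to see what differs where CRTC2 is missing as well. No single-cell clone of Lkb1-/- cells with CRTC2 intact was among the groups. Loss of CRTC2 and the cloning after CRISPR therefore cannot be told apart in this comparison. All 3 NR4A genes were lower in both clones and both treatment states, with every clone library below every Lkb1-/- library. In untreated clone A1, Nr4a1 was 2.36-fold lower (log2 fold change -1.24, SE 0.17, edgeR adjusted p = 7.70e-06), Nr4a2 2.23-fold lower (-1.16, SE 0.20, edgeR adjusted p = 0.000115) and Nr4a3 3.74-fold lower (-1.90, SE 0.35, edgeR adjusted p = 0.000204). With IL-1β, A1 values were -1.25 for Nr4a1 (edgeR adjusted p = 6.84e-06), -1.38 for Nr4a2 (1.64e-05) and -1.51 for Nr4a3 (0.00171). The background in clone A1 was 16.4% of genes called lower untreated and 17.3% with IL-1β, and 23.2% and 20.9% lower with no overlap, with 18.9% and 19.4% called higher.

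In clone A2 the 3 genes were also lower than in Lkb1-/- cells, Nr4a2 by the least. Untreated, Nr4a1 was 1.80-fold lower than in Lkb1-/- cells (-0.85, SE 0.17, edgeR adjusted p = 0.000501) and Nr4a3 3.29-fold lower (-1.72, SE 0.34, edgeR adjusted p = 0.000581). Nr4a2 was 1.44-fold lower (-0.53, SE 0.20, edgeR adjusted p = 0.0443), and this call was lost without the libraries of replicate number 1 (-0.34, edgeR adjusted p = 0.205). When any 1 of the 6 libraries of the comparison was left out, it held in 1 of 6 fits, the one without replicate 3 of untreated A2 (-0.74), and was lost in the other 5 (-0.59 to -0.31, the last without replicate 1 of untreated A2). With IL-1β the values were -1.27 for Nr4a1 (edgeR adjusted p = 7.55e-06), -0.81 for Nr4a2 (0.00306) and -2.47 for Nr4a3 (3.04e-05), the last a 5.56-fold difference. In clone A2, 15.1% of genes were called lower untreated and 15.8% with IL-1β, and 20.1% and 19.0% were lower with no overlap, with 17.1% called higher in each state. Both clones share the Lkb1-/- libraries as their control, and so do the comparisons with WT cells, so a high or low Lkb1-/- library moves all of them. Markers of other cell types also differed between the untreated clones and Lkb1-/- cells, and their part in the result was not tested. The 5 leukocyte markers summed to 3.39 CPM on average in Lkb1-/- cells, 5.05 in A1 and 5.39 in A2, the 5 epithelial markers to 0.899, 0.340 and 0.253 CPM, and the 4 endothelial markers to 2.71, 3.26 and 2.55 CPM.

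A direct comparison with WT cells shows where the clones ended up. In clone A1, Nr4a2 (0.20 on the log2 scale, 95% interval -0.22 to 0.63, edgeR adjusted p = 0.416) and Nr4a3 (0.02, interval -0.76 to 0.80, edgeR adjusted p = 0.968) were not called different from untreated WT cells, the interval for Nr4a3 being the wider. Nr4a1 was 1.33-fold lower than in untreated WT cells (-0.41, SE 0.17, edgeR adjusted p = 0.0481), a call that held in 1 of 6 fits with a library left out, the one without replicate 3 of untreated WT (-0.59), was at -0.42 to -0.28 and not called in the other 5, the last without replicate 1 of untreated WT, and was lost without the libraries of replicate number 1 (-0.29, edgeR adjusted p = 0.217). After IL-1β, A1 was at -0.23 for Nr4a1 (edgeR adjusted p = 0.261), 0.12 for Nr4a2 (0.652) and 0.57 for Nr4a3 (0.220) against WT cells. In clone A2, Nr4a2 was 1.78-fold higher than in WT cells untreated (0.83, SE 0.20, edgeR adjusted p = 0.00123) and 1.60-fold higher with IL-1β (0.68, SE 0.20, edgeR adjusted p = 0.00599), with no overlap between the groups. Nr4a1 in clone A2 was at -0.02 (interval -0.37 to 0.33, edgeR adjusted p = 0.946) and Nr4a3 at 0.21 (interval -0.56 to 0.98, edgeR adjusted p = 0.649) against untreated WT cells, and after IL-1β at -0.25 (edgeR adjusted p = 0.215) and -0.40 (edgeR adjusted p = 0.423). Of all genes, 30.3% were called higher and 25.1% lower in untreated A1 than in WT cells, and 32.7% and 27.9% in untreated A2. After IL-1β these shares were 30.1% and 26.9% in A1, and 32.0% and 28.8% in A2. Genes higher in A2 than in WT cells with no overlap made up 33.5% untreated and 32.8% with IL-1β.

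The clones also differed from each other in Nr4a2, which was 1.55-fold higher in A2 than in A1 without treatment (log2 0.63, SE 0.20, edgeR adjusted p = 0.0200, groups overlapping) and 1.48-fold higher with IL-1β (0.57, SE 0.20, edgeR adjusted p = 0.0375, groups not overlapping). Each of these calls held in 3 of 6 fits with a library left out, with values of 0.40 to 0.83 and 0.38 to 0.69. Both were lost without replicate 1 or 2 of A1 (untreated 0.61 and 0.48, IL-1β 0.56 and 0.48) or replicate 3 of A2 (0.40 and 0.38). For Nr4a1 the untreated difference was 0.39 (edgeR adjusted p = 0.0842), and it was called when the replicate number entered as a block (0.39, edgeR adjusted p = 0.0300). For Nr4a3 the difference after IL-1β was -0.97 (edgeR adjusted p = 0.0707), and with the block -0.98 (edgeR adjusted p = 0.0454). The block called 23.1% of all genes higher in the untreated comparison and 21.9% lower in the IL-1β comparison. In this comparison 15.8% of genes were called higher and 16.7% lower untreated, and 15.1% and 15.6% with IL-1β, where 18.6% were higher with no overlap. Crtc2 RNA itself was 1.16-fold higher in untreated A2 than in untreated A1 (edgeR adjusted p = 0.0161), and 1.12-fold higher with IL-1β (edgeR adjusted p = 0.0636, not called, groups overlapping), which was called with the replicate block (log2 0.17, edgeR adjusted p = 0.0163).

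**Figure D2:**
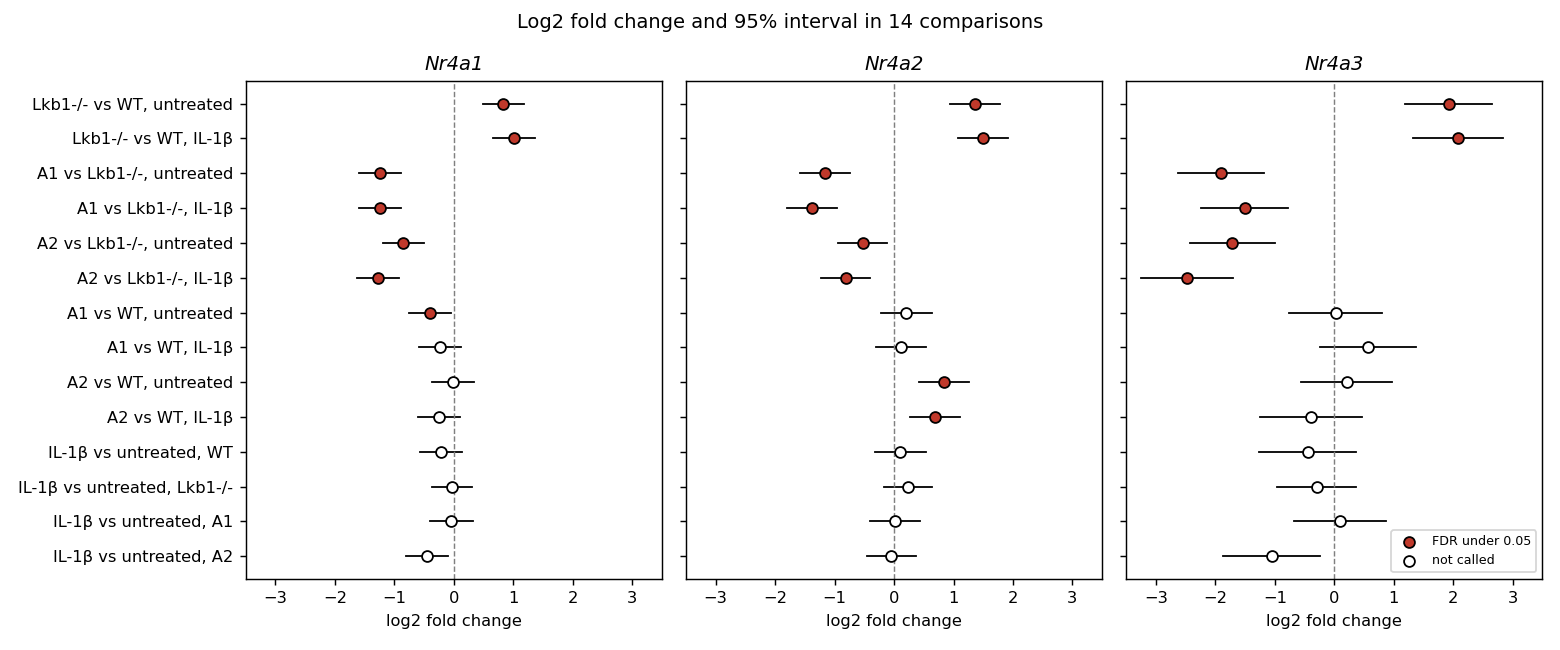
Log2 fold change (point) and its 95% interval (line) for the 3 NR4A genes in 14 comparisons from 1 fit of all 24 libraries (filled points, FDR under 0.05). The top 2 rows lie to the right of 0 and the next 4 to the left for all 3 genes, while the lowest 4 rows, the IL-1β responses, hold no filled point.

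IL-1β was given for 6 h, and the response within each genotype was tested next. None of the 3 NR4A genes was called in any of the 4 genotypes, in cells where 5 of 5 textbook IL-1β targets rose in every genotype, Cxcl1, a chemokine for neutrophils, by 4.99, 5.63, 4.75 and 5.35 on the log2 scale in WT, Lkb1-/-, A1 and A2 cells. In WT cells the log2 responses were -0.22 for Nr4a1 (95% interval -0.57 to 0.14), 0.11 for Nr4a2 (-0.32 to 0.53) and -0.45 for Nr4a3 (-1.26 to 0.36). In Lkb1-/- cells they were -0.03 for Nr4a1 (-0.37 to 0.31), 0.24 for Nr4a2 (-0.17 to 0.64) and -0.30 for Nr4a3 (-0.96 to 0.37), and in clone A1 -0.04 (-0.40 to 0.32), 0.02 (-0.40 to 0.44) and 0.10 (-0.68 to 0.88). In these 3 genotypes the intervals of Nr4a1 and Nr4a2 lay between -0.57 and 0.64, which bounds their change at this time point more closely than that of Nr4a3. With 1 library left out, none was called, and values ran in WT cells from -0.38 to -0.088 for Nr4a1 and -0.79 to -0.047 for Nr4a3, and in Lkb1-/- cells from 0.13 to 0.33 for Nr4a2 and -0.64 to -0.10 for Nr4a3. IL-1β called 1.53% of genes higher and 0.731% lower in WT cells, 2.65% and 2.09% in Lkb1-/- cells, and 1.20% and 0.788% in A1.

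The most negative IL-1β responses of Nr4a1 and Nr4a3 were those in clone A2, though neither passed the threshold. Nr4a1 was 1.37-fold lower (log2 -0.45, 95% interval -0.81 to -0.10, edgeR adjusted p = 0.143) and Nr4a3 2.08-fold lower (-1.05, interval -1.87 to -0.24, edgeR adjusted p = 0.137), and for both the treated and untreated libraries did not overlap. With 1 library left out, Nr4a1 was at -0.57 to -0.27 (called in 0 of 6 fits) and Nr4a3 at -1.33 to -0.84 (called in 1 of 6). With the replicate number as a block Nr4a1 was called (-0.45, edgeR adjusted p = 0.0283), and with a block within each genotype both were (Nr4a1 -0.46, edgeR adjusted p = 0.0125, and Nr4a3 -1.03, edgeR adjusted p = 0.0174). These fits called 10.6% and 15.5% of all genes lower. Without the libraries of replicate number 1, Nr4a3 was called (-1.26, edgeR adjusted p = 0.0290, and -1.33 without replicate 1 of untreated A2 alone) and Nr4a1 was not (-0.42, edgeR adjusted p = 0.178), where 8.59% of genes were called lower. Nr4a2 in A2 gave -0.04 (interval -0.46 to 0.37). In clone A2, IL-1β called 2.81% of genes higher and 2.86% lower, and 8.02% of genes were lower with no overlap. In Lkb1-/- cells the block within each genotype called a rise of Nr4a2 (0.23, edgeR adjusted p = 0.0350), as it did for 8.65% of all genes.

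Whether the response to IL-1β depends on genotype was tested as the difference of responses. No member was called: the Lkb1-/- response minus the WT response was 0.18 for Nr4a1, 0.13 for Nr4a2 and 0.15 for Nr4a3, and the A2 response minus the Lkb1-/- response -0.42, -0.28 and -0.76 (edgeR adjusted p = 1 for all 6). For A1 against Lkb1-/- the differences were -0.01, -0.22 and 0.40 (edgeR adjusted p = 1). Leaving out 1 library moved the A2 differences to -0.57 to -0.24 for Nr4a1, -0.48 to -0.045 for Nr4a2 and -1.04 to -0.41 for Nr4a3. It moved the Lkb1-/- minus WT differences to 0.057 to 0.36, 0.045 to 0.25 and -0.25 to 0.49, and those of A1 to -0.16 to 0.086, -0.36 to -0.038 and 0.20 to 0.74, with none called. Of all genes, edgeR called 0.245% for Lkb1-/- against WT and 0.0285% for A1 against Lkb1-/-. For A2 against Lkb1-/- edgeR called 0 genes, with 388 genes at an unadjusted p under 0.05, and DESeq2 called 12. Both this number and the 433 for A1 are below what that p threshold gives by chance among 17522 genes. The reported fit, which has no block, was thus conservative here, and its lack of calls is weak evidence that the responses were alike. With the replicate block and the block within each genotype, A2 against Lkb1-/- gave 18 and 183 genes, and no member was called.

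Levels of different genes can be compared once divided by length, taken here as all annotated exons of a gene (3509 bp for Nr4a1, 4059 bp for Nr4a2 and 5987 bp for Nr4a3). The sum of the 3 genes was 3.71 ± 0.173 CPM per kilobase in untreated WT cells and 8.37 ± 0.645 in untreated Lkb1-/- cells, and 3.60 ± 0.0554 and 9.14 ± 0.883 with IL-1β. It was 3.61 ± 0.484 in A1 and 5.25 ± 0.947 in A2 untreated, and 3.61 ± 0.426 and 4.65 ± 0.897 with IL-1β. By this length, Nr4a2 made up the largest share in all 8 groups by mean, from 53.2% in untreated WT cells to 73.2% in IL-1β-treated A2 cells, with 60.7% ± 3.99 in untreated Lkb1-/- cells. Nr4a1 held 25.5% to 44.1% and Nr4a3 1.21% to 4.57%, the latter highest in untreated Lkb1-/- cells. In 1 untreated WT library, replicate 1, Nr4a1 (53.3%) exceeded Nr4a2 (45.3%). The order in untreated WT cells depends on the length used: per kilobase of the longest transcript, the mean level was 2.25 CPM for both genes and the mean shares were 48.8% for Nr4a1 and 48.9% for Nr4a2, while Nr4a2 held 54.6% to 69.6% in the other 7 groups.

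**Figure D3:**
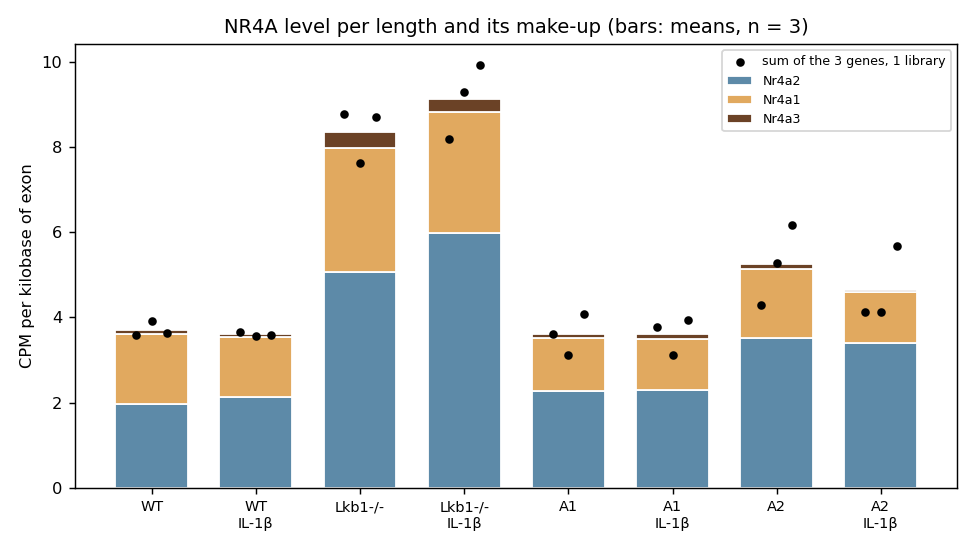
Mean CPM per kilobase of exon of Nr4a2, Nr4a1 and Nr4a3, stacked, in the 8 groups, with a point for the sum in each library. The Lkb1-/- sums lie between 7.62 and 9.93, and the highest sum of any other library is 6.18, in untreated A2.

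Among 49 nuclear receptor genes with a level per length, Nr4a2 ranked 13 to 19 over the 8 groups, Nr4a1 17 to 23 and Nr4a3 23 to 30, counted from the highest. Nr4a2 ranked 16 in untreated WT cells and 13 in untreated Lkb1-/- cells, Nr4a1 ranked 17 and 19, and Nr4a3 23 and 26. Nr4a1 and Nr4a3 thus stood lower in the ranking in untreated Lkb1-/- cells although their own levels were higher there. With IL-1β, Nr4a1 ranked 18 in both WT and Lkb1-/- cells, and Nr4a3 ranked 24 and 28. Of 30 other nuclear receptors tested, 14 were called higher and 5 lower in untreated Lkb1-/- than in WT cells, and their median log2 difference was 0.59 (0.04 over all genes tested, of which 30.1% were called higher and 25.8% lower). Rorb, the ROR-beta receptor, went from 0.0385 to 34.6 CPM and was at 7.81 CPM in untreated A1 and 9.03 CPM in untreated A2. Nr1h4, the bile acid receptor FXR, was lowest in Lkb1-/- cells, with 3.39 CPM in WT, 0.866 in Lkb1-/-, 5.87 in A1 and 4.58 in A2 cells, all untreated. In untreated A1 against Lkb1-/- cells 4 of the 30 were called higher and 11 lower (18.9% and 16.4% of all genes), and in untreated A2 3 higher and 5 lower (17.1% and 15.1%). With the replicate block these counts were 7 higher and 12 lower in A1 and 9 higher and 5 lower in A2, where that fit called 25.6% and 22.5% of all genes in A1 and 24.5% and 21.4% in A2. Without the libraries of replicate number 1, 9 were called higher and 4 lower in A2, against 21.7% and 17.5% of all genes. With IL-1β the list gave 14 higher and 6 lower in Lkb1-/- against WT cells with a median of 0.20 (all genes 0.03, background 30.2% and 27.1%), 7 higher and 6 lower in A1 (19.4% and 17.3%) and 3 higher and 4 lower in A2 (17.1% and 15.8%). With the block these were 9 higher and 11 lower in A1 (25.8% and 23.3%) and 8 higher and 6 lower in A2 (24.4% and 22.1%). The partner genes with which NR4A1 and NR4A2 form heterodimers, Rxra and Rxrb, rose by 0.76 and 0.61 on the log2 scale in untreated Lkb1-/- cells (edgeR, both called), and fell in untreated A1 (-0.43 and -0.46, both called), while values in untreated A2 were 0.24 and -0.02 (not called). Rxra was called higher in untreated A2 with the replicate block (0.23, edgeR adjusted p = 0.00639), as were 24.5% of all genes, and without the libraries of replicate number 1 (0.31, edgeR adjusted p = 0.000163). In A1 with IL-1β Rxra was not called (-0.33, edgeR adjusted p = 0.0641), but was with the block (-0.32, 0.000279). Of 5 RXR partners and corepressors tested, 3 were called higher and 1 lower in untreated Lkb1-/- against WT cells. Against Lkb1-/- cells, 0 were called higher and 2 lower in untreated A1, and 1 and 0 in untreated A2.

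**Figure D4:**
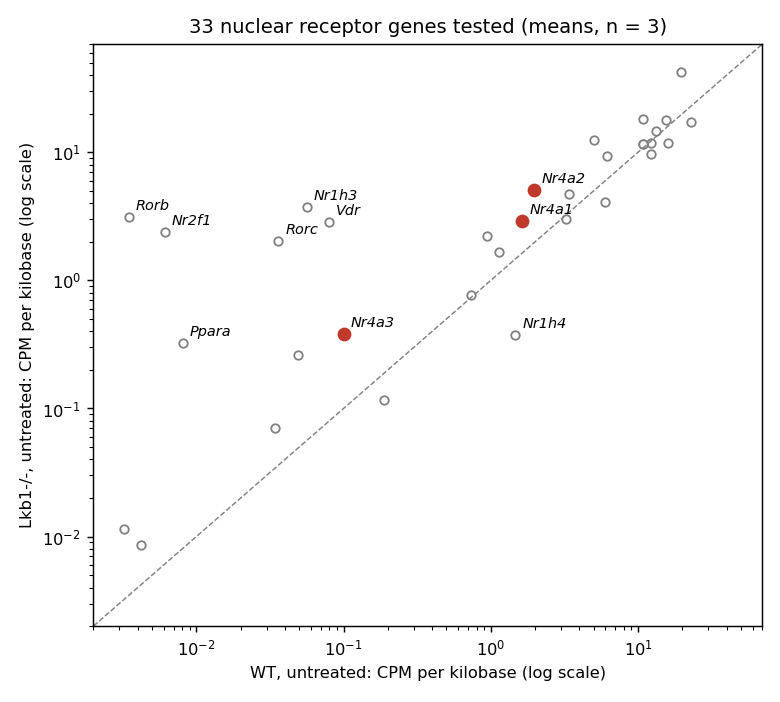
Mean CPM per kilobase of exon in untreated Lkb1-/- cells against untreated WT cells for the nuclear receptor genes tested, on log axes (filled points, NR4A genes, dashed line, equal levels). The 3 NR4A genes lie above the line, Nr4a3 from 0.10 to 0.379 CPM per kilobase, and nearer to it than Rorb, whose WT level is close to 0.

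CREB and CRTC2 have other known target genes, and 20 of 22 in a list without the NR4A genes were tested (Pck1 and G6pc had too few counts). Like the other gene lists, it was chosen with earlier results of these data known, so its counts are no independent support. In untreated Lkb1-/- against WT cells 11 of the 20 were called higher and 4 lower, with a median log2 fold change of 0.45 against 0.04 for all genes tested and a background of 30.1% of genes called higher and 25.8% lower. The median was also 0.45 with Ppargc1a, which had fewer than 3 counts per library in WT cells, set to that limit. The same list gave 9 lower and 3 higher in untreated A1 against Lkb1-/- cells (median -0.41, all genes 0.02, background 16.4% lower and 18.9% higher), and 12 lower and 2 higher in untreated A2 (median -0.60, all genes 0.02, background 15.1% lower and 17.1% higher). Without the libraries of replicate number 1 these counts were 11 higher and 4 lower (background 31.9% and 27.3%), 10 lower and 2 higher (18.9% and 21.3%), and 12 lower and 3 higher (17.5% and 21.7%). With the replicate block they were 12 higher and 5 lower (34.3% and 30.0%), 13 lower and 3 higher in A1 (22.5% and 25.6%), and 12 lower and 4 higher in A2 (21.4% and 24.5%). With IL-1β the counts by the reported fit were 11 higher and 4 lower in Lkb1-/- against WT cells (background 30.2% and 27.1%), 9 lower and 3 higher in A1 (17.3% and 19.4%), and 13 lower and 3 higher in A2 (15.8% and 17.1%). The A1 count with IL-1β was 15 lower and 3 higher with the block, which called 23.3% of all genes lower and 25.8% higher.

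Some listed targets had the same directions as the NR4A genes, with other sizes. Pde4b, a cAMP phosphodiesterase, had log2 differences of 5.70 in untreated Lkb1-/- against WT cells, -1.16 in A1 and -0.77 in A2 against Lkb1-/- cells, all called. Rgs2, an inhibitor of G protein signaling, had 3.36, -1.21 and -1.04, all called. Areg, the EGF receptor ligand amphiregulin, had 2.46, -3.53 and -2.87, and Sik1, the kinase that restrains CRTC2, had 1.05, -0.89 and -0.64, again all called. With IL-1β, Sik1 in A2 against Lkb1-/- cells was at -0.26 and not called (edgeR adjusted p = 0.154). The replicate block called it (-0.26, edgeR adjusted p = 0.0169). Other targets had other directions. Atf3, a stress-induced transcription factor, was at -3.09, 0.57 and 0.60, Cited2, a regulator of CBP and p300, at 0.77, 0.36 and 0.84, and Bdnf, which encodes a neurotrophin, at -0.59, 0.72 and -0.55, with all 9 values called. The call of Cited2 in A1 was lost without the libraries of replicate number 1 (0.37, edgeR adjusted p = 0.0665). So was that of Dusp1 in A1, a listed target that was lower there (-0.31, and -0.24 without those libraries, edgeR adjusted p = 0.0903). Irs2, an insulin receptor substrate, was at -0.35, -0.47 and -0.57, all negative and all called. Ptgs2, which encodes the prostaglandin synthase COX-2, was at -0.02 in Lkb1-/- against WT cells (not called), at -0.54 in A1 (not called, but called with the replicate block at -0.52, edgeR adjusted p = 0.0339) and at -2.69 in A2 (called). Ppargc1a had 0.0174 CPM in untreated WT cells, under the limit of 3 counts per library, and 2.83 CPM in untreated Lkb1-/- cells.

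**Figure D5:**
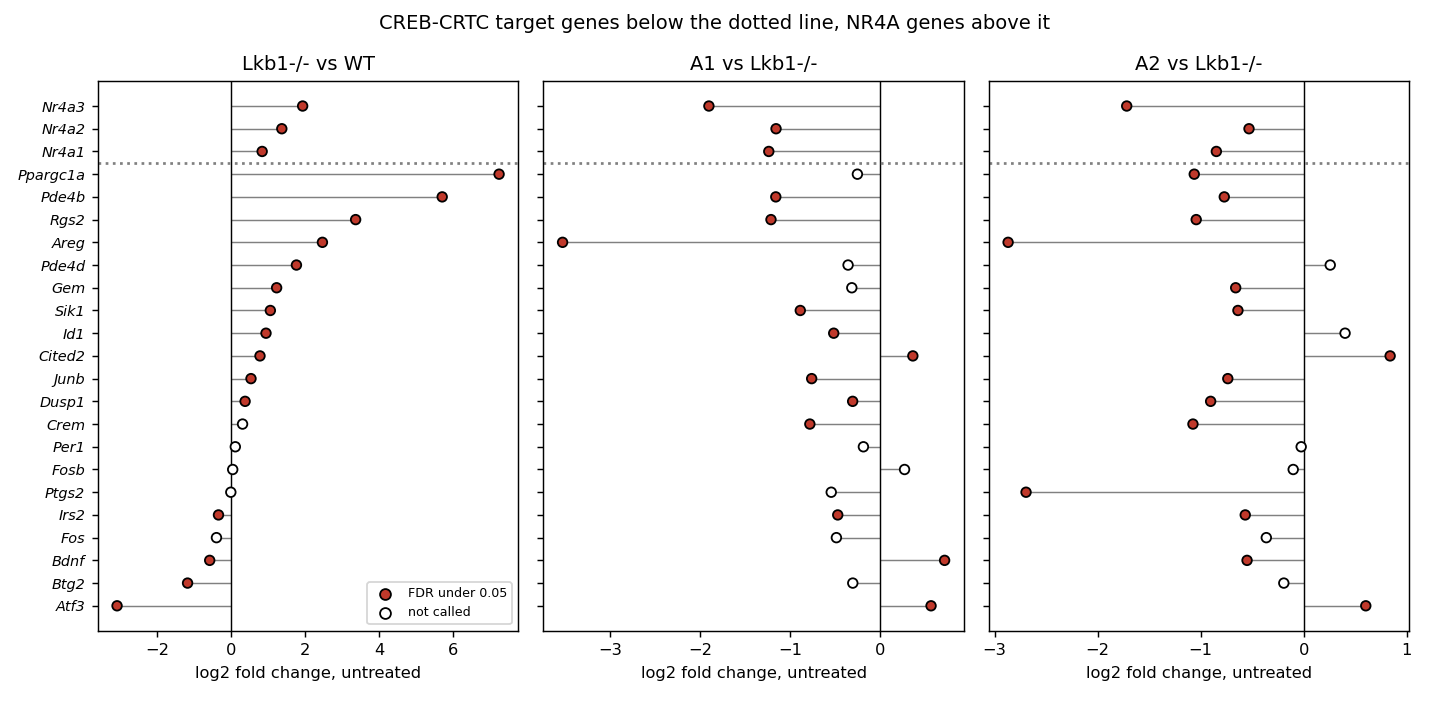
Log2 fold change in untreated cells of 20 CREB-CRTC target genes, ordered by their difference between Lkb1-/- and WT cells, and of the 3 NR4A genes above them (filled points, FDR under 0.05, each panel with its own axis). The 3 NR4A genes are to the right of 0 in the left panel and to the left of 0 in the other panels, as are targets such as Pde4b, Rgs2, Areg, Sik1, Junb and Dusp1, while Atf3 is reversed. The WT level of Ppargc1a is under 3 counts per library, so its point in the left panel depends on the fit.

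Immediate-early genes are the class to which the NR4A genes belong. Of 20 tested, 8 were called higher and 7 lower in untreated Lkb1-/- against WT cells (median log2 fold change 0.06, all genes 0.04, background 30.1% and 25.8%), 6 lower and 3 higher in untreated A1 against Lkb1-/- cells (median -0.31, all genes 0.02, background 16.4% and 18.9%) and 7 lower and 3 higher in untreated A2 (median -0.22, all genes 0.02, background 15.1% and 17.1%). In untreated A1 the replicate block gave 10 lower and 3 higher, against 22.5% and 25.6% of all genes. With IL-1β, 6 were called higher and 6 lower in Lkb1-/- against WT cells (median 0.12, background 30.2% and 27.1%), 9 lower and 2 higher in A1 (median -0.43, background 17.3% and 19.4%), and 9 lower and 3 higher in A2 (median -0.28, background 15.8% and 17.1%). The list shares 6 genes with the CREB target list, Atf3, Btg2, Dusp1, Fos, Fosb and Junb. Egr3, an early growth response factor, had the highest called value in untreated Lkb1-/- against WT cells, 3.07 on the log2 scale, with -0.71 in A1 (called) and -0.03 in A2 (not called) against Lkb1-/- cells. Ier3, a regulator of cell survival, was at 0.95, -0.74 and -0.28 in these comparisons, and Ier2, another early response gene, at -0.35, -0.71 and -0.61, all called. With IL-1β at 6 h, Ier3 was called higher in all 4 genotypes (1.94, 1.62, 1.46 and 1.42 in WT, Lkb1-/-, A1 and A2 cells).

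Of 19 regulators placed upstream of the NR4A genes that were tested, 7 were called higher and 8 lower in untreated Lkb1-/- against WT cells, where 30.1% and 25.8% of all genes were called. Crtc1, a paralog of Crtc2, rose by 1.10 on the log2 scale in untreated Lkb1-/- cells and was at -0.67 in A1 and -0.51 in A2 against Lkb1-/- cells, all called, while Sik3, a kinase of the SIK family, was at -0.43, 0.27 and -0.22, all called. Creb1 and Crtc3, named after their values were seen, were at -0.43 and -0.40 in untreated Lkb1-/- against WT cells (both called), and neither was called in the untreated clones by the reported fit. In untreated A1 both were called lower with the replicate block (Creb1 -0.24, edgeR adjusted p = 0.00385, and Crtc3 -0.29, edgeR adjusted p = 0.000896), as were 22.5% of all genes, and also without the libraries of replicate number 1 (-0.21 and -0.30). Without those libraries Crtc3 was called higher in untreated A2 (0.24), and the call of Sik3 in A2 was lost (-0.20, edgeR adjusted p = 0.0648). Hdac4, a class IIa deacetylase that SIKs also restrain, was at 0.68, -1.54 and -1.26, all called, and the MEF2 factor gene Mef2c at -0.85, 0.89 and 1.13, all called. Srf, the factor of the CArG box, fell by 0.93 in untreated Lkb1-/- cells.

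For a description of likeness, the log2 CPM of each member was correlated over the 24 libraries with genes of mean log2 CPM above 1 (11354 genes for Nr4a1 and Nr4a2 and 11355 for Nr4a3). The libraries share their 8 groups, so these values carry the differences between groups. For Nr4a1 the most similar were Ddhd2 (Pearson r = 0.928), Fnta (0.909) and Sclt1 (0.908). For Nr4a2 they were Ugdh (0.959), Samd1 (0.954) and Gtf2b (0.952), and for Nr4a3 Cdh13 (0.903), Coq9 (0.902) and Nbdy (0.902).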

How the data were processed

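The 24 libraries were RNA-seq of MEFs, 3 per group, grouped by the genotype and treatment in the labels. The authors trimmed reads with Trim Galore 0.6.0 and aligned them to mm10 with STAR 2.7.8a, per the submitters' processing notes, and deposited unnormalized counts per gene for each library in 3 strand settings. The counts of the second read strand were used here, and the 4 summary lines, equal to 26.7% to 34.4% of the pairs on genes and those lines together, were left out. Symbols came from GENCODE M21 (GRCm38) for 55230 of 55471 genes, and 241 had none. All 24 libraries were fitted together with edgeR 4.0.16 in R 4.3.3 (filterByExpr with a minimum count of 10, TMM, quasi-likelihood test, no replicate block), which left 17522 genes, and CPM carry the TMM factors. A gene was called at a Benjamini-Hochberg adjusted p under 0.05 over all of them. SE is the log2 fold change divided by the square root of F. Depth, 38842901 to 48594394 pairs per library, sets the counting error. The scripts were tested on simulated counts. The NR4A genes and the gene lists were chosen with earlier results of these data known. Genes were named where they are members or check genes, where they were called in Lkb1-/- against WT and in both clones, or where they had the largest or smallest called value of a list in a comparison. Same-numbered replicates deviated together (84 pairs, r from 0.122 to 0.743, median 0.445 over 11355 genes, against a median of -0.259 between different numbers), so the numbers were taken to pair libraries, from the data and not from the labels. Deviations were taken from the mean of each group's 3 libraries and cancel within a group. The negative median thus follows from the positive one and is no separate evidence. Alternatives were DESeq2 1.42.0, other scalings, filters and strand settings, a replicate block, only the groups compared, each library left out, and, chosen after seeing the data, replicates 2 and 3 only and levels without TMM.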

Additional observations from a re-analysis of the deposited data

Results flagged for a closer look

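Counts in the opposite strand setting, which no comparison uses, held on average 1.33 read pairs for Nr4a1 in IL-1β-treated Lkb1-/- libraries while the untreated WT libraries had 0, a signal outside the main measurement that stayed at or under 2 pairs in any library and below the limit of 3 counts.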

How the results depend on the processing

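All 3 genes in Lkb1-/- against WT cells and in both clones against Lkb1-/- cells, apart from Nr4a2 in untreated A2, kept their direction and call in 272 of 272 repeats of the 17 results. Nr4a2 in untreated A2 against Lkb1-/- cells kept its call in 8 of 16, and lost it with unstranded counts (-0.51, edgeR adjusted p = 0.0630), with only the groups compared (-0.55, 0.0695) and with replicates 2 and 3 only (-0.34, 0.205), and ranged from -0.74 to -0.31 when 1 library was left out. Counting depth limits Nr4a3 most, with 13 to 126 counts per library, and the cause of the changes below was not tested.

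Other calls lost were Nr4a1 in untreated A1 against WT cells with upper-quartile scaling (-0.32), with 10 counts required in every library (-0.38), with only the groups compared (-0.39) and with replicates 2 and 3 (-0.29), and Nr4a2 in untreated A2 against A1 with only the groups compared (0.62). With the replicate number as a block, calls were gained for the IL-1β response of Nr4a1 in A2 (-0.45) and for A2 against A1 in untreated Nr4a1 (0.39) and IL-1β-treated Nr4a3 (-0.98). With a replicate block within each genotype, the IL-1β response was called for Nr4a1 (-0.46) and Nr4a3 (-1.03) in A2 and for Nr4a2 in Lkb1-/- cells (0.23), and the paired fits changed no other call of a member. Replicates 2 and 3 alone called Nr4a3 with IL-1β in A2 (-1.26).

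Changes of sign concerned values near 0 that were not called. Nr4a3 in untreated A1 against WT cells was at -0.087 with unstranded counts and -0.54 with replicates 2 and 3. Nr4a1 in untreated A2 against WT cells was at 0.072 with upper-quartile scaling, 0.012 with the 10-count filter and 0.023 with replicates 2 and 3, which also gave 0.13 for its IL-1β response in Lkb1-/- cells and 0.0033 for A2 against A1 with IL-1β. The A1 minus Lkb1-/- response of Nr4a1 was 0.0057 without a filter and 0.0035 with only the groups compared. With 1 library left out, the values ran for Nr4a1 from -0.12 to 0.12 (IL-1β in Lkb1-/-), -0.12 to 0.054 (IL-1β in A1), -0.16 to 0.086 (A1 minus Lkb1-/- response), -0.17 to 0.17 (A2 against A1, IL-1β) and -0.19 to 0.11 (untreated A2 against WT). For Nr4a2 they ran from -0.016 to 0.16 (IL-1β in WT), -0.12 to 0.20 (in A1) and -0.24 to 0.19 (in A2). For Nr4a3 they ran from -0.091 to 0.33 (IL-1β in A1), -1.33 to -0.84 (in A2, called in 1 of 6), -1.19 to -0.78 (A2 against A1, IL-1β, called in 1 of 6), -0.018 to 0.48 (A2 against A1, untreated), -0.25 to 0.49 (Lkb1-/- minus WT response), -0.32 to 0.40 (untreated A1 against WT) and -0.13 to 0.59 (untreated A2 against WT).

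Counts of genes called for IL-1β were 396 in WT, 831 in Lkb1-/-, 348 in A1 and 995 in A2 cells by the reported fit, and 954, 1428, 908 and 1643 with no filter, 1629, 2601, 1684 and 3133 with the replicate block, 2823, 3966, 2860 and 4557 with the block within genotypes, and 921, 1534, 899 and 2556 with replicates 2 and 3. DESeq2 called 624 in WT and 573 in A1 cells, and the A2 groups alone gave 246. Differences of response (Lkb1-/- minus WT, A1 minus Lkb1-/-, A2 minus Lkb1-/-) numbered 43, 5 and 0 by the reported fit, 76, 3 and 1 with upper-quartile scaling, 347, 141 and 68 with no filter, 311, 36 and 18 with the block, 1003, 267 and 183 with the block within genotypes, 121, 12 and 12 by DESeq2, and 147, 10 and 6 with replicates 2 and 3. The first was 70 with only the groups compared and 70 with the 10-count filter, and the second 3 with unstranded counts. With 1 library left out, the IL-1β counts ran from 203 (without untreated WT replicate 2) to 412 in WT, from 544 (without untreated Lkb1-/- replicate 2) to 763 in Lkb1-/-, from 197 (without untreated A1 replicate 2) to 233 in A1 (without untreated A1 replicate 1), and from 679 to 1890 (without untreated A2 replicate 1) in A2 cells. The differences of response ran from 23 (without untreated Lkb1-/- replicate 2 or 3, 25 without IL-1β-treated Lkb1-/- replicate 3 and 28 without IL-1β-treated WT replicate 2) to 57, 0 to 4 and 0 to 1.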
